A study of Mus musculus with 4 samples.

Results

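The 10 genes described here belong to the melanosome, the pigment granule of melanocytes, and were measured in B16-OVA, a line of mouse melanoma cells with an ovalbumin transgene: Tyr, Tyrp1, Dct, Pmel, Mlana, Slc45a2, Slc24a5, Oca2, Gpr143 and Gpnmb. They encode the melanin-making enzymes, the scaffold and membrane proteins of the pigment granule, and several proteins used as melanoma antigens. The members were found by the gene symbols of the array platform. Of the 10 genes, 9 had a probe of their own, 1 probe each, among 22180 genes measured. Slc24a5 was covered by 2 probes that the platform also assigns to Myef2, and it is described apart.

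The series held 4 Affymetrix gene arrays, 2 of the mock group and 2 of the AT90ES group, all made from 300 ng of total RNA of B16-OVA cells. Per the labels, AT90ES is the transfected agent, which the design text links to double-stranded DNA of 90 bases, and transfection used the lipid reagent Lipofectamine for 6 hours. All 4 arrays carry one treatment text, and no label says what was given to the mock cells, so what the DNA did and what the transfection did cannot be told apart. Nothing in the labels says that the arrays of a group came from separate cultures, and p-values then measure the spread between these arrays, which may be technical. B16-OVA is a single established line, so the arrays say nothing of variation between tumours.

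Melanin is made in melanosomes, organelles related to lysosomes that mature in stages. Tyrosinase, encoded by Tyr, carries out the first and rate-limiting oxidation of tyrosine, and its relatives Tyrp1 and Dct act on later intermediates of the black-brown pigment. PMEL protein forms the fibrils on which melanin is laid down. The transcription factor MITF binds a short sequence, the M-box, in the promoters of tyrosinase family genes. Because T cells can recognise peptides of these proteins, the tyrosinase family, PMEL (gp100) and MLANA (MART-1) are among the classical differentiation antigens of melanoma.

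The question was whether the pigment and antigen genes differ after transfection of DNA, and at what level they are expressed without it. All values are log2 levels from RMA, in which a difference of 1 is a 2-fold change. Probes differ in how strongly they bind their target, so levels of different genes are not ranked here as amounts of RNA. As a mark of the signal expected without expression, 1105 olfactory receptor genes were read on the same arrays, with a 95th percentile between 4.85 and 5.07 over the 4 arrays. The highest log2 level of any probe was 13.27 to 13.505.

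Other genes differed strongly between the groups. Ccl5, a T cell chemokine, had log2 levels of 5.86 and 5.84 in mock cells against 12.14 and 12.21 after AT90ES. Ifit1, an interferon-stimulated antiviral gene, had 5.69 and 5.79 in mock cells against 11.78 on both arrays after AT90ES. In limma's test over all genes 92 of 22180 genes passed an adjusted p of 0.05 as higher and 0 as lower, with 999 higher and 1017 lower at an unadjusted p under 0.05.

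Of the 9 measured pigment and antigen genes 0 passed in either direction, where 0.415% of all genes passed as higher and 0% as lower. At such shares most sets of 9 genes would hold 0, so the count alone says little of the members. Over all genes the log2 differences ran down to -0.99 and still none was called lower. A fall of that size in a member could thus go uncalled. Without adjustment, at p under 0.05 in limma, 0 members were also higher and 0 lower, where 4.5% of all genes were higher and 4.59% lower. With a spread that follows the level (limma's intensity trend) 0 members passed after adjustment, where 1.94% of all genes passed as higher and 0.73% as lower. The log2 differences, AT90ES minus mock, ran from -0.06 for Slc45a2 to 0.28 for Gpr143, with a median of 0.01 over the members and -0.02 over all genes. The 95% intervals of all 9 differences lay within a 2-fold change either way, as did those of 96.7% of all genes, and the intervals of 7 members lay within 1.5-fold. With 2 arrays a group, a difference within these intervals could not be told from 0.

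**Figure D1:**
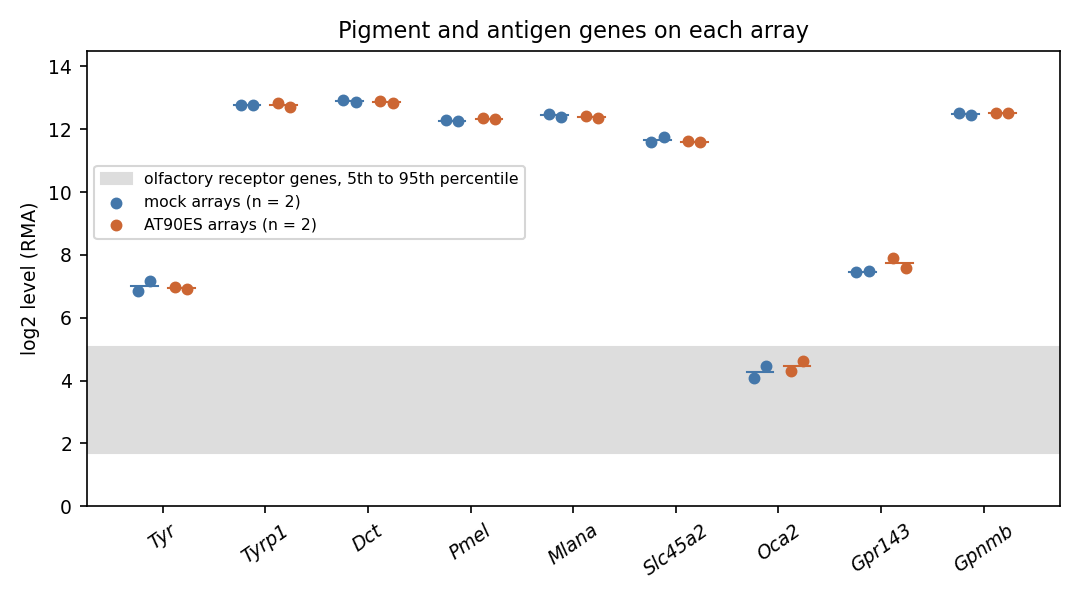
Log2 level (RMA, vertical axis) of the 9 measured genes on the 2 mock arrays (blue) and the 2 AT90ES arrays (orange), with a line at each group's mean; the grey band runs from the lowest 5th to the highest 95th percentile of olfactory receptor genes over the 4 arrays. Tyrp1, Dct, Pmel, Mlana, Slc45a2 and Gpnmb lie far above the band, Tyr and Gpr143 lie above it, and Oca2 lies inside it on every array.

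The enzymes of melanin synthesis come first. Tyr had log2 levels of 6.84 and 7.16 in mock cells against 6.995 and 6.91 after AT90ES. Both AT90ES values lay between the mock values. The difference was -0.05 ± 0.15 (SE), with a 95% interval from -0.42 to 0.33 (limma adjusted p = 0.958), and the 2 mock arrays were themselves 0.32 apart.

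Tyrp1, whose protein stabilises tyrosinase and acts on a later melanin precursor, had log2 levels of 12.76 and 12.78 in mock cells against 12.84 and 12.72 after AT90ES. The AT90ES arrays lay on either side of the mock pair. The difference was 0.01 ± 0.12, with an interval from -0.29 to 0.30 (limma adjusted p = 0.99).

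Dct, which encodes dopachrome tautomerase (TRP-2), had log2 levels of 12.94 and 12.88 in mock cells against 12.92 and 12.83 after AT90ES. The groups overlapped. The difference was -0.04 ± 0.12, with an interval from -0.33 to 0.25 (limma adjusted p = 0.957).

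Promoter sequence was available for 6 of the 10 members in RefSeq's table of GRCm38.p6, each window running from 250 bases before the start site to 50 after it. The core letters of the M-box were looked for on both strands, first the 6 letters CATGTG and then the 7 letters TCATGTG, which contain them. The longer motif was present in Tyr, Tyrp1, Dct and Slc24a5, where 3.77% of 32851 promoter windows of all genes held it. The shorter was present in Oca2 as well, where 14.2% of all windows held it. The stretches around the longer motif are shown because 3 of them belong to the enzymes just described; each reads 5′ to 3′ on the gene's strand with the match in capitals, which in Slc24a5 is on the opposite strand.
Tyr, chr7:87493478-87493584, minus strand: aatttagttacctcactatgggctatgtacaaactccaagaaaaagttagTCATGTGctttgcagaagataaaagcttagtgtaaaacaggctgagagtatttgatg
Tyrp1, chr4:80834116-80834222, plus strand: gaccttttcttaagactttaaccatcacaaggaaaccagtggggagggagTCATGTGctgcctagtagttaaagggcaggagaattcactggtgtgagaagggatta
Dct, chr14:118052341-118052447, minus strand: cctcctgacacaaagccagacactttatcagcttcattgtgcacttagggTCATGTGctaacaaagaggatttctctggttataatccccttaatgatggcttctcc
Slc24a5, chr2:125068064-125068170, plus strand: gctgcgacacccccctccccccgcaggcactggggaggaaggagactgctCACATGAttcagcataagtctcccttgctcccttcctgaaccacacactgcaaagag

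In the Tyr window the match began 22 bases before the start site, and in the Tyrp1 window 47 bases before it. Dct held a pair of matches, the one shown, which began 151 bases before the start site, and another on the opposite strand at 232 bases before it. The Slc24a5 match began 13 bases before the start site. The longest run of letters around the match common to Tyr, Tyrp1 and Dct was GTCATGTGCT, 10 letters. It was taken from these 3 windows, so its presence in them was fixed in advance, and a longer run is rarer by its length. It was held by 61 of the 32851 windows (0.186%), these 3 included. A match is a run of letters and not a measured binding site. Of measured genes with the 6 letters in a window, 8 of 2260 passed the adjusted threshold in limma (0.354%). With the 7 letters 4 of 602 passed (0.664%), and with the 10 letters 0 of 13, Tyr, Tyrp1 and Dct among them. Over all 22180 genes the share was 0.415%, but only 16990 of these had a window. These shares were not tested against each other.

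The gene of MITF, a factor that binds the M-box, was measured too. Mitf had log2 levels of 10.33 and 10.40 in mock cells against 10.02 on both arrays after AT90ES, so both AT90ES arrays lay below both mock arrays. Its difference was -0.34 ± 0.11, with an interval from -0.63 to -0.06 (limma adjusted p = 0.469), and it passed as lower with an intensity trend (adjusted p = 0.00483). The group means of Tyr, Tyrp1 and Dct on the same arrays differed by 0.05 or less. Whether the level of Mitf bears on these genes was not tested.

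Among the structural and antigen genes, Pmel had log2 levels of 12.31 and 12.25 in mock cells against 12.37 and 12.31 after AT90ES. Both AT90ES arrays lay above both mock arrays, the lower of them level with the higher mock array at 2 decimals. Such a separation was seen upward for 2 of the 9 members (Pmel and Gpr143) and 17.7% of all genes, and downward for 0 members and 22.1% of all genes. The difference was 0.06 ± 0.11 (SE), with an interval from -0.22 to 0.34 (limma adjusted p = 0.922), about the size of the 0.05 between the arrays of a group.

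Mlana, which encodes the small membrane protein MART-1 of early melanosomes, had log2 levels of 12.49 and 12.39 in mock cells against 12.43 and 12.34 after AT90ES. The groups overlapped. The difference was -0.06 ± 0.12, with an interval from -0.35 to 0.24 (limma adjusted p = 0.928).

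Gpnmb, a membrane glycoprotein related to PMEL that is also made by macrophages, had log2 levels of 12.52 and 12.45 in mock cells against 12.52 and 12.51 after AT90ES. The AT90ES values lay between the mock values. The difference was 0.03 ± 0.11, with an interval from -0.26 to 0.31 (limma adjusted p = 0.966). Of 12 macrophage markers, 6 lay above the olfactory receptor mark on both mock arrays, as did 53.9% of all genes. The mean log2 level over the list was 5.17 and 5.21 in mock cells against 4.897 and 5.02 after AT90ES. Cd68 and Fcer1g, the 2 with the highest mean, had mean log2 levels of 6.41 and 6.27 on the mock arrays, above that mark. The macrophage receptor gene Adgre1, named after its value was seen, had a mean of 4.53 on the mock arrays, under it. The log2 difference was -0.31 for Fcer1g and -0.15 for Cd68, and 0 of the 12 passed in limma. Before adjustment 3 were lower (limma, p under 0.05), as were 4.59% of all genes, and 0 passed with an intensity trend. The labels name only the line B16-OVA and no macrophages, and what gave these signals was not tested.

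The transporters of the melanosome membrane set its ionic conditions. Slc45a2, which helps to raise the pH inside the melanosome, had log2 levels of 11.59 and 11.74 in mock cells against 11.61 and 11.60 after AT90ES. Both AT90ES values lay between the mock values. The difference was -0.06 ± 0.12, with an interval from -0.36 to 0.24 (limma adjusted p = 0.928).

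Oca2, which encodes a melanosome membrane protein needed for chloride conductance, had log2 levels of 4.09 and 4.45 in mock cells against 4.31 and 4.62 after AT90ES. All 4 values lay below the olfactory receptor mark of their own array. The difference was 0.19 ± 0.18, with an interval from -0.26 to 0.63 (limma adjusted p = 0.81), and a change of a gene so near background could go unseen. Leaving out mock replicate 1 gave 0.01 and leaving out mock replicate 2 gave 0.37; the same step for the AT90ES arrays gave 0.34 (replicate 1 out) and 0.03 (replicate 2 out).

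The 2 probes that the platform assigns to both Slc24a5, a cation exchanger of the melanosome, and Myef2 were tested among all 41345 probes. The first had log2 levels of 11.46 and 11.45 in mock cells against 11.36 and 11.30 after AT90ES. Its AT90ES values lay below both mock values, with a difference of -0.13 ± 0.13 (limma adjusted p = 0.883). The second had 8.51 and 8.86 in mock cells against 8.68 and 8.49 after AT90ES, with groups that overlapped and a difference of -0.10 ± 0.18 (limma adjusted p = 0.943). Which of the 2 genes gave either signal cannot be told apart.

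Gpr143, the receptor whose loss causes ocular albinism, had the largest measured difference among the 9 members. Its log2 levels were 7.44 and 7.49 in mock cells against 7.90 and 7.58 after AT90ES. Both AT90ES arrays lay above both mock arrays, but the AT90ES arrays were 0.32 apart, and the second was 0.10 above the higher mock array. The difference was 0.28 ± 0.15, with an interval from -0.09 to 0.64 (limma adjusted p = 0.646). It was 0.12 without AT90ES replicate 1 and 0.43 without AT90ES replicate 2. In the second case the interval ran from 0.02 to 0.85, and with an intensity trend from 0.01 to 0.54, both without 0, but the adjusted p over the 13 alternatives ran from 0.406 to 0.95.

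**Figure D2:**
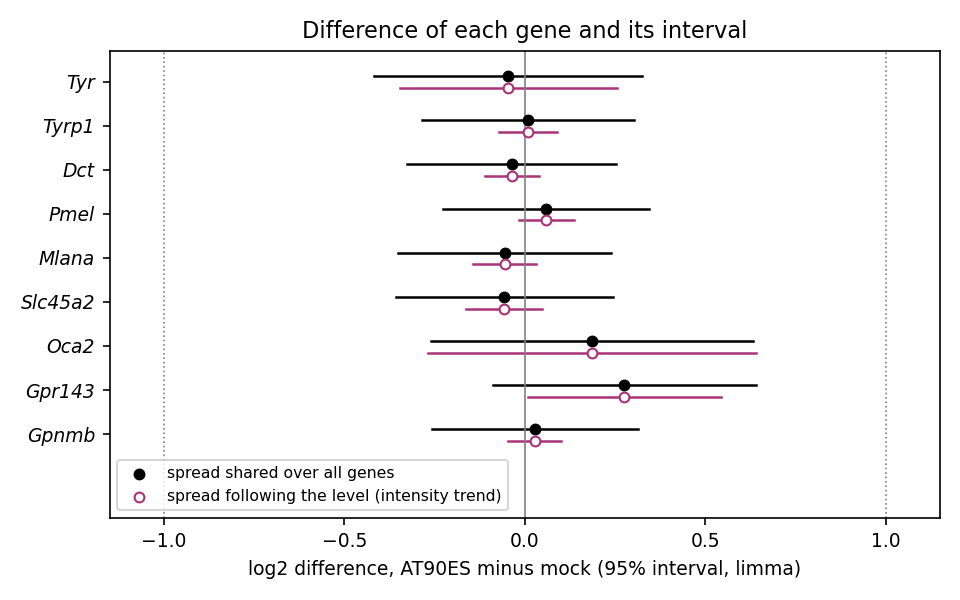
Log2 difference, AT90ES minus mock (horizontal axis), of each measured gene with its 95% interval from limma, with the spread shared over all genes (black) and with a spread that follows the level (purple, open); the dotted lines mark a 2-fold change either way. All 9 intervals lie inside the dotted lines, and the purple intervals of Tyrp1, Dct, Pmel, Mlana, Slc45a2 and Gpnmb are the narrowest.

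The intervals were narrowest for genes of high level when the spread was let follow the level. Tyrp1, Dct, Pmel, Mlana, Slc45a2 and Gpnmb all had mean mock levels of 11.66 or above, and their intervals together ran from -0.36 to 0.34, or from 0.781-fold to 1.27-fold. With an intensity trend the intervals of these 6 genes ran from -0.16 to 0.14, or from 0.894-fold to 1.10-fold. In the members the arrays of a group were a median of 0.07 (mock) and 0.09 (AT90ES) apart, against 0.15 in both groups over all genes.

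These 6 genes also lie near the top of the measured range. Of the 64 genes with a mean mock level at or above the lowest of theirs, these 6 included, 0 passed in limma in either direction. With an intensity trend 0 were higher and 1 was lower. The log2 differences of the 64 ran from -0.19 to 0.18, with a median size of 0.06, against 0.05 for the 6 members. Whether probes at such levels still report a rise in full was not tested. Ccl5 reached a mean of 12.17 on the AT90ES arrays, from a mock mean of 5.85. The mock means of Pmel, Mlana, Gpnmb, Tyrp1 and Dct were already above 12.17. Ccl5 is read by another probe and its true rise is not known, so it does not answer this for any of the 6 members.

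The remaining genes of the organelle were taken from lists. Beside the list counts stand the shares over all genes. These were 0.415% higher and 0% lower after adjustment in limma, and 4.5% and 4.59% at an unadjusted p under 0.05. With an intensity trend they were 1.94% and 0.73% after adjustment. The counts were not tested against these shares. Of 35 measured genes of melanosome biogenesis and transport, 1 passed as higher, 0 as lower and 34 did not pass, with a median log2 difference of 0.05. The gene that rose was Slc7a11, the cystine and glutamate exchanger that feeds the cysteine of red-yellow pheomelanin and is also used by many cells for glutathione. Its log2 levels were 5.58 and 5.84 in mock cells against 7.69 and 7.21 after AT90ES. The groups were well apart, with a rise of 1.74 ± 0.20 on the brightest probe (limma adjusted p = 0.0415). With the mean of the gene's probes the rise was smaller, at 1.44 (limma adjusted p = 0.0265). The call was lost when each of the 4 arrays was left out in turn, where the rise ran from 1.499 to 1.98 (adjusted p 0.0556 to 0.145), and under centring on the reference genes (adjusted p = 0.0535) and with every probe tested separately (0.223).

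With an intensity trend the same list had 2 genes higher and 2 lower, the additional ones named here after their values were seen. Dtnbp1, a subunit of the BLOC-1 complex that sorts cargo to melanosomes, had log2 levels of 8.62 and 8.82 in mock cells against 9.47 and 9.51 after AT90ES (difference 0.77; limma adjusted p = 0.153, and 0.000136 with the trend). Rab32, a small GTPase that delivers the enzymes, stood at -0.48 (0.351, and 0.00841 with the trend). Mlph, the linker of melanosomes to the myosin motor, stood at -0.35 (0.555, and 0.0242 with the trend).

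Of 20 melanocyte lineage regulators and receptors, 0 passed in limma in either direction, with a median of 0.03. At an unadjusted p under 0.05 in limma 4 were higher and 2 lower, where 4.5% of all genes were higher and 4.59% lower. Mitf is given above, and Tfap2a, another factor of the lineage, had a difference of -0.24 ± 0.11 (limma adjusted p = 0.605). With an intensity trend 1 was higher and 3 were lower, Mitf and Tfap2a among the latter (adjusted p = 0.0329 for Tfap2a). The others, named after their values were seen, were Erbb3, a growth factor receptor, at 0.45 (adjusted p = 0.00281 with the trend) and Mc1r, the melanocortin receptor that drives black-brown pigment, at -0.48 (0.0037 with the trend).

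Of 13 measured genes on the list of other melanoma markers, 0 passed, with 1 higher and 1 lower before adjustment (limma, p under 0.05) and a median of -0.04. The 1 gene higher with the trend was Erbb3, which is on both lists and is counted above. Ptgds, a prostaglandin synthase, had a difference of -0.19 and Mcam, an adhesion molecule of melanoma cells, of 0.06. Neither passed the threshold (limma adjusted p = 0.731 and 0.933).

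Most cancer-testis and other tumour antigens on the list lay near background. Of 21 measured genes, 4 lay above the olfactory receptor mark on both mock arrays, against 8 of the 9 pigment and antigen genes and 53.9% of all genes. The cancer-testis antigen Prame had 2.96 and 3.06 in mock cells against 3.29 and 2.99 after AT90ES, under the mark on each array; it was named after its value was seen. In limma 0 of the 21 passed in either direction, with 1 higher and 3 lower before adjustment (p under 0.05) and 1, Pbk, lower with the trend. Pbk, a mitotic kinase, stood at -0.38 (limma adjusted p = 0.459, and 0.0246 with the trend). Birc5, which encodes survivin, stood at -0.40 (limma adjusted p = 0.579).

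Lysosome genes were read because melanosomes share their origin with lysosomes. Of 17 measured, 0 passed in limma, with a median of 0.13 that was above that of the members. At an unadjusted p under 0.05 in limma 3 were higher (4.5% of all genes) and 0 lower (4.59%). With the trend 3 were higher after adjustment (1.94% of all genes). Sqstm1, an autophagy receptor, had a difference of 0.37 ± 0.11 (limma adjusted p = 0.444, and 9.5e-05 with the trend). Ctsd, a lysosomal protease, had 0.18 ± 0.11 (0.70, and 0.0255 with the trend).

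**Figure D3:**
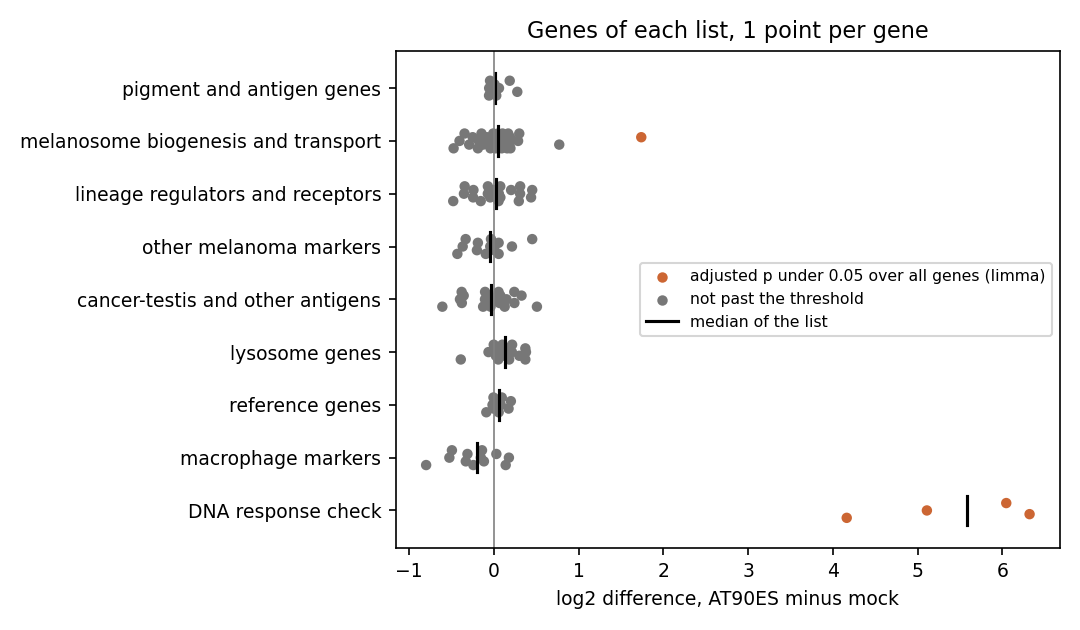
Log2 difference, AT90ES minus mock (horizontal axis), of every measured gene of each list, 1 point per gene, with genes past an adjusted p of 0.05 over all genes in orange and the median of each list as a bar. The 9 pigment and antigen genes lie between -0.06 and 0.28 with none in orange, while the 4 response check genes (Ifit1, Cxcl10, Ccl5 and Isg15) lie between 4.16 and 6.32.

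The cell identity in the labels was read from markers. Of 11 measured melanocyte markers, the 9 members with Mitf and Sox10, 10 lay above the olfactory receptor mark on all 4 arrays, and the exception was Oca2. Over all genes 11704 of 22180 did. As 9 of the 11 are the members, this count mostly repeats their levels given above. Markers of keratinocytes (0 of 4) and lymphocytes (0 of 7) did not reach the mark on both mock arrays. Of the markers of fibroblasts and endothelium 4 of 9 did, against 53.9% of all genes. Col1a2 had a mean of 6.22 and Col1a1 of 5.90 on the mock arrays. In limma 0 markers of these 3 groups passed, with 1 keratinocyte and 2 lymphocyte markers lower at an unadjusted p under 0.05.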

How the data were processed

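The authors deposited 1 log2 value per probe and array, which the submitters' processing notes give as RMA output; the software, its version and the genome build are not given in the sources used here. RMA equalises the arrays' distributions, so each difference is relative to the other genes. Probes were named from the platform's annotation: of 41345 probes 23521 had 1 gene symbol, 1814 several and 16010 none. The brightest probe stood for a gene. The groups were compared with limma 3.58.1 (R 4.3.3; lmFit and eBayes, no covariate, no filter on dim probes), two-sided, with Benjamini-Hochberg adjustment over 22180 genes; the fit had 2 residual and 3.7 prior degrees of freedom. An exact permutation test of 2 against 2 arrays cannot give a p below 0.333 and was not used. The steps were tested on simulated data. Named were all members, the 4 response genes, and in each list up to 3 genes past the threshold or the 2 with the highest mean; exceptions are marked. The members and lists were chosen with earlier results of these data known. The alternatives were other centring, filters, probe rules and spreads, leaving out each array, and the replicate number as a block. Promoter sequences are RefSeq's. The number of arrays limits the precision.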

Additional observations from a re-analysis of the deposited data

How the results depend on the processing

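Under the 13 alternatives 0 of the 9 pigment and antigen genes passed the threshold in either direction, although the sign of values near 0 changed in Tyr, Tyrp1, Dct, Slc45a2 and Gpnmb; the adjusted p ran from 0.406 to 0.999. Oca2 was not tested where dim genes were left out. The genes called higher over the whole array moved from 92 to 166 with dim genes left out (12085 genes tested), 431 with an intensity trend and 30 with every probe tested separately, and ran from 32 to 47 without each array in turn; the genes called lower moved from 0 to 11 with dim genes left out, to 162 with the trend and to 1 with arrays centred on their median. Melanosome biogenesis genes called higher moved from 1 to 0 with centring on the reference genes, with every probe tested separately and without each array (0 to 0), and to 2 with dim genes left out and with the trend, where 2 were lower. With the trend, too, lineage genes numbered 1 higher and 3 lower, other melanoma markers 1 higher (Erbb3, also the 1 higher lineage gene), tumour antigens 1 lower and lysosome genes 3 higher. The cause was not tested. Same-numbered arrays did not deviate together (r = -0.22 over genes), and the numbers were not taken to pair the arrays. With 2 arrays a group the crossed numbers must give the same r with the other sign (0.22). This r therefore cannot settle whether the arrays were paired. With the replicate block 85 genes were higher and 0 members passed. With the numbers crossed, an alternative chosen after seeing the data, 59 genes were higher. Signals near background (Oca2) limit what could be detected.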
